A study of Homo sapiens with 9 samples.

Results

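The integrated stress response and amino acid genes described here are 47 named human genes, of which 45 were measured by a probe set with a single gene symbol, out of 19775 genes measured in all. They were chosen by name, and each was read from 1 probe set, that with the highest 9-array mean. MARS1, a methionyl-tRNA synthetase gene, appeared only in probe sets with several symbols, and GPT2, an alanine transaminase gene, was not found under its symbol, so both were left out. The measured genes comprise 7 transcription factors, 9 regulators and effectors, 7 amino acid transporters, 11 enzymes of amino acid and one-carbon synthesis, and 11 genes of tRNA charging and export. After a filter on dim genes, 11865 genes were tested, among them 43 of the members. The enzyme gene ALDH1L2, dim on all 9 arrays, and the glycine transporter gene SLC6A9, dim on 7, fell below the filter.

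The cells were LNCaP, an established androgen-responsive line from human prostate cancer, and each of 9 groups was 1 Affymetrix U133 Plus 2.0 array. The inhibitor series held cells kept in medium with 10% fetal bovine serum (steady state) and 4 groups held for 48 h in 5% charcoal-stripped serum to remove androgen. The first of these 4 was the androgen-deprived control (vehicle), the next was given 100 nM of the androgen dihydrotestosterone (DHT) for 16 h, and the others received 100 µM etoposide or 100 µM merbarone for 2 h ahead of the same DHT stimulation. Etoposide traps topoisomerase II on cleaved DNA, and merbarone blocks its catalytic activity. In the shRNA series, transfected cells carried a green fluorescent vector encoding either the sh-TOP2B or the sh-control hairpin, underwent the same deprivation, received vehicle or 100 nM DHT for 16 h, and were sorted for fluorescence, giving 4 groups. No steady-state or inhibitor group was made with sorted cells, and no inhibitor was given without DHT.

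When the translation factor eIF2 is phosphorylated by a stress kinase, bulk protein synthesis falls while the mRNA of the transcription factor ATF4 is translated more. ATF4, with C/EBP partners, activates genes that import and make amino acids, charge tRNAs and feed back on the pathway, and it raises the transcription factor CHOP, the product of DDIT3. The kinases respond to amino acid shortage, misfolded protein in the endoplasmic reticulum, heme shortage and double-stranded RNA. ATF4 itself is controlled largely at translation, which an array of mRNA does not see.

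Many of these genes are known to be bound by ATF4 with a C/EBP partner at a composite element, searched here as TGATGNAA on both strands. RefSeq promoter windows (GRCh38.p14, 250 bases before to 50 after each annotated start) were matched by symbol for 36 of the 45 measured members. The letters were present in 14 of these 36 genes (38.9%) and in 4.46% of the 27305 genes with a window. They occurred in 6 of 10 tRNA charging and export genes, 3 of 6 transcription factors, 3 of 6 transporters, 1 of 7 regulators and effectors and 1 of 7 synthesis enzymes. Since the members are known targets of this pathway, the share describes the choice of genes, and a match of letters is not a measured binding site. The stretches below are those with a match upstream of the start, printed on the strand of the gene from 5′ to 3′ with the match in capitals, because they are where the pathway's element can be seen. In AARS1, CHAC1, GARS1 and IARS1 the match lies on the opposite strand, so the capitals show its reverse complement.
ATF3 (chr1:212565180-212565259, plus strand): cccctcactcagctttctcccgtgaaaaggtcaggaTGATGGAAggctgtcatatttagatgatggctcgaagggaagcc
CEBPG (chr19:33374033-33374112, plus strand): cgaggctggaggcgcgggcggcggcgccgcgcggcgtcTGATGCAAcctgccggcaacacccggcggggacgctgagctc
JDP2 (chr14:75427942-75428021, plus strand): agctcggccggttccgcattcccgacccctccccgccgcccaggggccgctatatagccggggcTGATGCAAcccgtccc
CHAC1 (chr15:40953226-40953305, plus strand): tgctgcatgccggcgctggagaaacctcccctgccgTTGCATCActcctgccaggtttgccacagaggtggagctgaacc
SLC1A5 (chr19:46784868-46784947, minus strand): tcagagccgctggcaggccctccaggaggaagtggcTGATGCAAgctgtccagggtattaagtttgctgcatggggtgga
ASNS (chr7:97872433-97872512, minus strand): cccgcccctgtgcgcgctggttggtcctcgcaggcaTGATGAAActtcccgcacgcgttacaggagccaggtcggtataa
AARS1 (chr16:70289650-70289729, minus strand): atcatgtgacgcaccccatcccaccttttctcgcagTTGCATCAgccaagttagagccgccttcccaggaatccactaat
GARS1 (chr7:30594798-30594877, plus strand): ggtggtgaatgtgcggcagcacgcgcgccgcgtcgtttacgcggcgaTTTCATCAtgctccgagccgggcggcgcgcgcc
IARS1 (chr9:92293698-92293777, minus strand): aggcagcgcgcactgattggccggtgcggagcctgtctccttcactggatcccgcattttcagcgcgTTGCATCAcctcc

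The middle base of the element, marked N, differs between these genes: ASNS and GARS1 hold TGATGAAA, ATF3 holds TGATGGAA and the other 6 hold TGATGCAA. CARS1, NARS1, SLC3A2, SLC7A1 and TARS1 had their match across or after the start. Of the members that rose with merbarone, 10 of 21 with a window held the letters, and of those that did not pass the test 4 of 13 did. None of the 6 other cytosolic tRNA synthetase genes with a window held them. The endoplasmic reticulum stress element, a CCAAT box separated by 9 bases from CCACG, was found in 0 of the 36 members. It occurred in 0.0916% of the 27305 genes with a window, so 0 of 36 is near that share. Of 15 chaperone and folding genes of the ATF6 and XBP1 arms, 6 held it.

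The labelled cell type was checked against defining genes. Prostate luminal TMPRSS2, HOXB13, FOLH1, KRT8 and KRT18 were above the array median on all 9 arrays, and the androgen targets KLK3 and KLK2 were dim on 1 and 4 of them. Basal KRT14, neuroendocrine CHGA, stromal COL1A2 and DCN and immune PTPRC and CD14 were dim on all 9 arrays, and basal KRT5 on 8. Neuroendocrine SYP was dim on 2 arrays, and neuroendocrine ENO2 (7.58 to 10.22) and stromal COL1A1 (8.05 to 9.63) were dim on none. KLK3, the gene of prostate-specific antigen and a standard androgen target, read 5.68 with vehicle, 11.02 with DHT, 7.68 with etoposide and DHT and 5.56 with merbarone and DHT. The difference between the 3' and 5' ends of the actin transcript, a sign of RNA quality, was 0.38 to 0.70 in the inhibitor series and 2.38 to 3.09 in the shRNA series. Levels are log2 RMA values, "dim" means below the median of the array (5.61 to 5.72), and differences are log2 differences with the standard error (SE) of a limma fit. Where the 9 values of a gene are listed, the first 5 are steady state, vehicle, DHT, etoposide with DHT and merbarone with DHT, and the last 4 are sh-control vehicle, sh-control DHT, sh-TOP2B vehicle and sh-TOP2B DHT.

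Merbarone given with DHT was set against DHT alone to see what topoisomerase II inhibition adds to the androgen response. Of the 43 members tested, 27 rose, 1 fell and 15 did not pass the test, whereas over all genes 15.4% rose and 16.3% fell. The median member differed by 0.70, against a median of 0 over all genes. A difference of at least 1 upward was found in 16 members (background 6.81%) and downward in 2 (background 7.54%). All 7 transcription factors rose, and the rest of the rises were 5 of 9 regulators and effectors, 2 of 6 transporters, 5 of 10 synthesis enzymes and 8 of 11 tRNA charging and export genes. These are 1 array against 1, so the test borrows its spread from the 3 DHT and vehicle pairs and assumes that the lone array varies as they do.

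**Figure D1:**
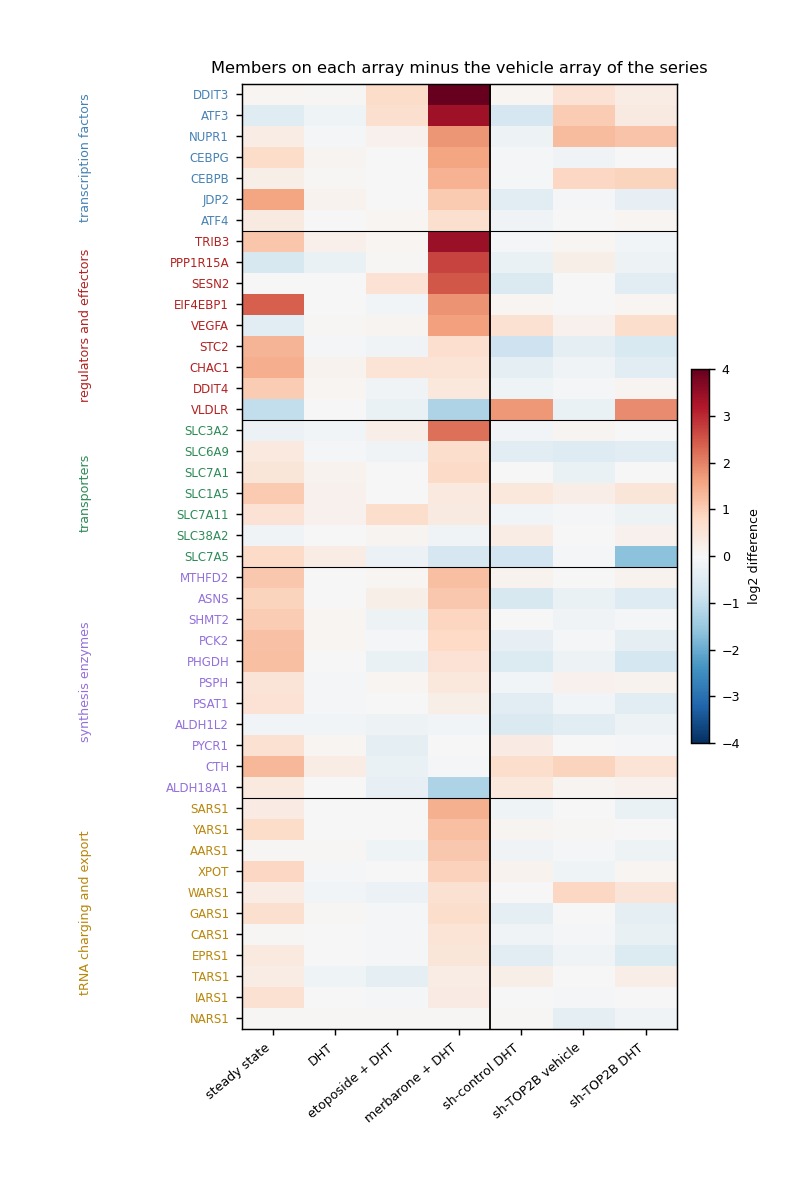
Heat map of the 45 measured members (rows, coloured by role) on 7 arrays (columns), each as the log2 difference from the vehicle array of its series. The colour scale runs from -4 to 4, and the vertical line divides the inhibitor series from the shRNA series. The merbarone column holds the strongest reds, DDIT3 (3.98 above vehicle), TRIB3 (3.45) and ATF3 (3.40), and the steady-state column is red over the synthesis enzymes.

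DDIT3, which encodes the stress factor CHOP, had the largest difference of the members. Its 9 values were 9.59, 9.53, 9.56, 10.25 and 13.51, then 6.83, 6.91, 7.42 and 7.12. Merbarone raised DDIT3 by 3.95 ± 0.19 (SE), or 15.5-fold (limma adjusted p = 0.000187), while the other 4 arrays of that series spanned 0.72. ATF3, a stress-induced repressor and activator of the ATF family, read 10.16, 10.66, 10.50, 11.31 and 14.06, then 9.44, 8.77, 10.46 and 9.80. It rose by 3.57 ± 0.20, or 11.8-fold (adjusted p = 0.000187), and its 3 probe sets gave 3.57 to 5.12. Both genes were highest on the merbarone array of all 9.

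NUPR1, a small chromatin-associated stress protein gene, read 11.94, 11.63, 11.55, 11.79 and 13.41, then 11.31, 11.12, 12.57 and 12.45. It rose by 1.85 ± 0.09 with merbarone (adjusted p = 0.000187), and it was also high on both sh-TOP2B arrays. CEBPG, the gene of a C/EBP partner of ATF4, read 10.42, 9.67, 9.77, 9.67 and 11.25, then 10.24, 10.17, 10.09 and 10.26, a rise of 1.48 ± 0.14 (adjusted p = 0.000882). CEBPB, another C/EBP partner, rose by 1.36 (adjusted p = 0.000543) and JDP2, a Jun-dimerising repressor, by 0.92 (adjusted p = 0.0456). ATF4, the central factor, changed least of the 7, and its merbarone call was lost without the limma trend. It stood at 13.00, 12.62, 12.65, 12.70 and 13.25, then 11.55, 11.41, 11.54 and 11.64, and it rose by 0.60 ± 0.10 with merbarone, or 1.52-fold (adjusted p = 0.00619). The JDP2 call was lost when either shRNA pair was left out (adjusted p = 0.064 and 0.0736).

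Among the regulators, TRIB3, a pseudokinase that restrains ATF4 and CHOP, read 10.89, 9.77, 9.96, 9.85 and 13.22, then 8.00, 7.96, 8.07 and 7.88. Its rise with merbarone was 3.26 ± 0.18, or 9.57-fold (adjusted p = 0.000187), and steady state was the next highest array. PPP1R15A, which encodes GADD34, the phosphatase subunit that removes phosphate from eIF2, read 6.43, 7.08, 6.83, 7.11 and 9.77, then 6.34, 6.08, 6.56 and 6.14, a rise of 2.94 ± 0.23 (adjusted p = 0.000515). SESN2, a sestrin that restrains mTORC1 and is also a p53 target, read 8.47, 8.46, 8.46, 9.02 and 10.94, then 8.28, 7.69, 8.29 and 7.84, and rose by 2.48 ± 0.24 (adjusted p = 0.000848). PPP1R15A and SESN2 were both highest of all 9 arrays with merbarone. In the inhibitor series etoposide was the next highest for SESN2, while for PPP1R15A etoposide (7.11) and vehicle (7.08) were nearly equal.

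EIF4EBP1, which encodes the repressor of cap-dependent translation 4E-BP1, showed another shape. It read 11.53, 9.13, 9.13, 9.02 and 10.92, then 8.99, 9.06, 8.97 and 9.07. Both steady state and merbarone were high, and the merbarone rise was 1.78 ± 0.15 (adjusted p = 0.000525). VEGFA, an angiogenic growth factor gene and ATF4 target, rose by 1.59 (adjusted p = 0.00208), from 11.82 to 13.41. The secreted glycoprotein gene STC2 (0.73), the glutathione-degrading enzyme gene CHAC1 (0.40), and the mTORC1 inhibitor gene DDIT4 (0.34) did not pass. VLDLR, a lipoprotein receptor gene, was at -1.24 ± 0.66 and did not pass either (adjusted p = 0.209). With arrays centred on control genes STC2 and DDIT4 passed, and VLDLR passed as a fall. STC2 also passed with the median over its probe sets (0.99, adjusted p = 0.0106), and DDIT4 with the DHT level fitted from all pairs (0.40, adjusted p = 0.0405).

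Of the transporters, SLC3A2, the heavy chain shared by several exchangers, read 10.75, 10.97, 10.85, 11.22 and 13.16, then 8.65, 8.56, 8.76 and 8.65. It rose by 2.32 ± 0.13, or 4.98-fold (adjusted p = 0.000187). Neither of its light chains measured here passed. SLC7A5, the leucine exchanger chain LAT1, read 7.90, 7.14, 7.45, 6.92 and 6.48, then 7.90, 7.14, 7.83 and 6.27, and was at -0.97 ± 0.56 (adjusted p = 0.247). SLC7A11, the cystine exchanger chain xCT, was at 0.18 ± 0.15 (adjusted p = 0.438). SLC7A1, a carrier of cationic amino acids, read 12.14, 11.65, 11.78, 11.66 and 12.41, then 12.29, 12.26, 12.04 and 12.30, a rise of 0.63 ± 0.12 (adjusted p = 0.00781). The 5 SLC7A1 probe sets gave 0.06 to 1.15, and its call was lost with the median over probe sets (0.46) and without the limma trend. SLC1A5, a glutamine carrier, read 9.91, 8.85, 9.04, 8.83 and 9.25, then 7.15, 7.58, 7.42 and 7.65. It was at 0.21 with merbarone and did not pass, and its highest value was in steady state. The glutamine carrier SLC38A2 (-0.12) did not pass, and SLC6A9, dim with DHT, was at least 0.53 higher with merbarone without a test.

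Differences of the synthesis enzymes lay between -1.22 and 1.21. MTHFD2, a mitochondrial folate enzyme, read 12.29, 11.23, 11.23, 11.30 and 12.44, then 10.34, 10.47, 10.33 and 10.49, and rose by 1.21 ± 0.11 (adjusted p = 0.000806). ASNS, asparagine synthetase, read 12.51, 11.63, 11.63, 11.86 and 12.72, then 11.17, 10.52, 10.90 and 10.66, and rose by 1.09 ± 0.20 (adjusted p = 0.00817). SHMT2, which transfers a one-carbon unit from serine, read 12.70, 11.69, 11.76, 11.48 and 12.54, then 12.66, 12.64, 12.54 and 12.57, and rose by 0.77 ± 0.08 (adjusted p = 0.00126). In all 3 of these genes the steady-state and merbarone arrays were the highest of the inhibitor series. The ASNS call was lost with the median over probe sets (0.62), and its other probe set was dim. PCK2, a mitochondrial enzyme that makes phosphoenolpyruvate, rose by 0.73 (adjusted p = 0.0182) and PSPH, the last enzyme of serine synthesis, by 0.46 (adjusted p = 0.0224). The PSPH probe sets disagreed, from -0.58 to 0.58.

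ALDH18A1, the first enzyme of proline synthesis, was the member that fell. It read 11.82, 11.45, 11.43, 11.11 and 10.21, then 11.06, 11.47, 11.17 and 11.22, a difference of -1.22 ± 0.16 with merbarone (adjusted p = 0.00266), and merbarone was the lowest of the 9 arrays. PYCR1, a later enzyme of the same pathway, was at -0.07 ± 0.17. The serine synthesis genes PHGDH (0.57) and PSAT1 (0.32) and the cysteine synthesis gene CTH (-0.33) did not pass. PHGDH and PSAT1 passed when arrays were centred on control genes.

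Of the tRNA charging genes, the seryl-tRNA synthetase gene SARS1 led. It read 11.80, 11.47, 11.47, 11.46 and 12.90, then 10.54, 10.37, 10.54 and 10.29, and rose by 1.44 ± 0.12 (adjusted p = 0.000613). YARS1, for tyrosine, read 11.70, 10.97, 10.99, 10.97 and 12.19, then 10.65, 10.75, 10.69 and 10.64, and rose by 1.20 ± 0.11 (adjusted p = 0.000805). AARS1, for alanine, read 12.18, 12.12, 12.18, 11.94 and 13.20, then 10.96, 10.83, 10.91 and 10.77, and rose by 1.02 ± 0.11 (adjusted p = 0.00127). AARS1 was set apart on the merbarone array. With merbarone the YARS1 probe sets gave 0.21 to 1.20, and its call was kept under each alternative run. For SARS1 and YARS1 the steady-state array depended on the probe set. The other SARS1 probe set read 9.17 in steady state, 6.49 with vehicle and 7.69 with merbarone. With the median over probe sets, SARS1 was 1.51 higher in steady state (adjusted p = 0.000404), and the steady-state rise of YARS1 no longer passed (0.45, adjusted p = 0.102).

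XPOT, which encodes the exporter of tRNA from the nucleus, read 12.61, 11.79, 11.75, 11.81 and 12.71, then 11.38, 11.52, 11.20 and 11.46. Its difference of 0.95 ± 0.12 passed (adjusted p = 0.00217), but its other probe set gave -0.88, and with the median over probe sets the call was lost (0.04, adjusted p = 0.892). WARS1 for tryptophan (0.70), GARS1 for glycine (0.66), CARS1 for cysteine (0.54) and IARS1 for isoleucine (0.31) also rose. EPRS1 for glutamate and proline (0.48), TARS1 for threonine (0.46) and NARS1 for asparagine (0.01) did not pass. EPRS1 and TARS1 passed with the median over probe sets (0.54 and 1.08) and when arrays were centred on control genes (0.76 and 0.74). The other TARS1 probe set was dim with DHT.

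**Figure D2:**
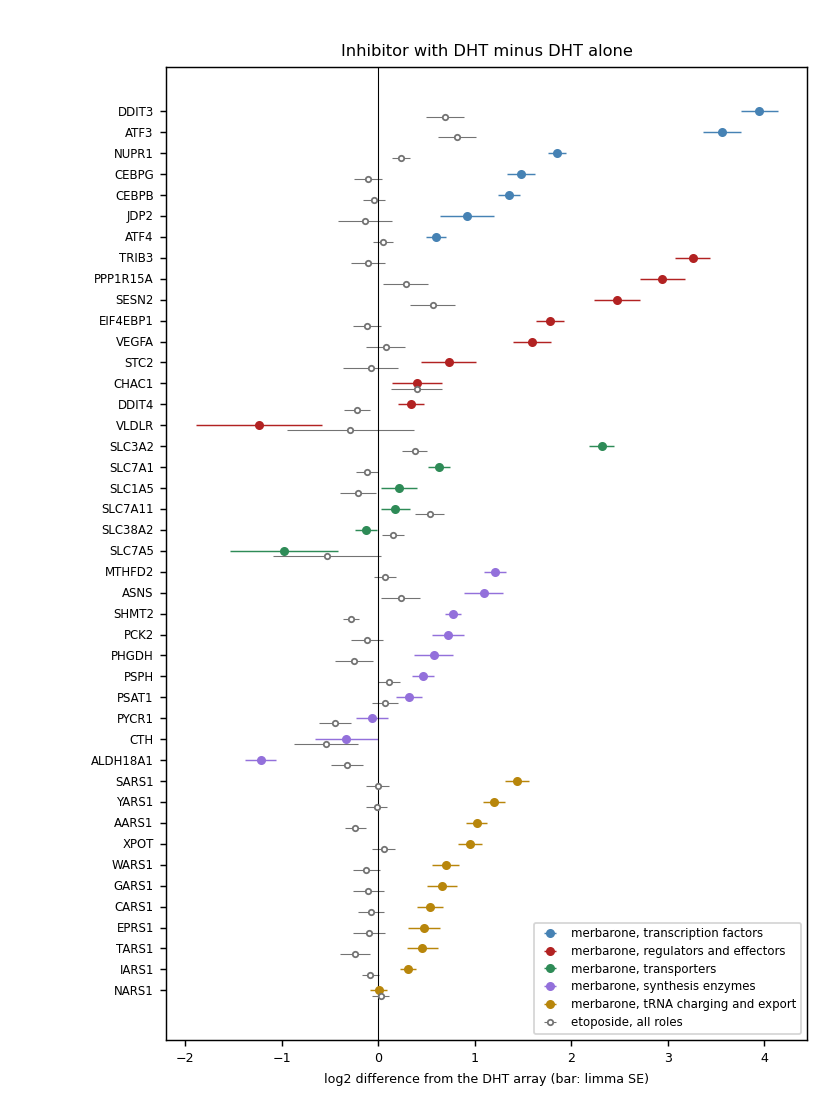
Log2 difference from the DHT array for the 43 members tested, by role, with merbarone as filled and etoposide as open points and the limma SE as bars. Merbarone points reach 3.95 (DDIT3), and the etoposide points lie between -0.54 and 0.82.

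Other genes of the same pathways were counted from separate lists for merbarone against DHT alone, where 15.4% of all genes rose and 16.3% fell. Of 14 genes of the eIF2 arm (the kinases, eIF2, its exchange factor and partners), 2 rose, 3 fell and 9 did not pass, with a median of -0.03. EIF2B2 (0.97), an exchange factor subunit, rose, and DNAJC3 (-0.83), an inhibitor of the eIF2 kinase PERK, fell. Of 7 other cytosolic tRNA synthetase genes, 0 passed in either direction (median -0.06), and 1 of them had an unadjusted p under 0.05. Of 15 mitochondrial synthetase genes 2 rose and 2 fell (median -0.20), the largest being LARS2 (-1.56) and IARS2 (-1.24). The counts of the eIF2 arm and of the mitochondrial synthetases are near the shares over all genes. Of 15 genes of the ATF6 and XBP1 arms, which make chaperones of the endoplasmic reticulum, 1 rose and 7 fell (median -0.36), among them SDF2L1 (-1.15) and MANF (-1.13). The median level of the 13 control genes was lower on the merbarone array than on the DHT array by 0.29, while the median of their own differences was -0.06. Centring on that level adds 0.29 to every difference and puts the median of the control genes' differences at 0.22. The eIF2 arm then counted 4 higher and 0 lower with a median of 0.26, so its falls, DNAJC3 among them, no longer passed. The medians of both synthetase lists turned positive too, with their counts unchanged. The ATF6 and XBP1 arms counted 2 higher and 5 lower with a median of -0.08. After the same centring, 2410 of all 11865 genes were higher and 833 lower.

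Etoposide was given at the same dose and time as merbarone and compared with the same DHT array, so both comparisons share that array. With etoposide, 0 of the 43 members passed in either direction, against 0.211% of all genes higher and 0.834% lower. The median was -0.08, and 7 members had an unadjusted p under 0.05. The largest differences were ATF3 (0.82 ± 0.20, limma adjusted p = 0.14) and DDIT3 (0.69 ± 0.19, adjusted p = 0.184), followed by SESN2 (0.56), SLC7A11 (0.53), CHAC1 (0.40) and SLC3A2 (0.38). The most negative values were those of CTH (-0.54), SLC7A5 (-0.53) and PYCR1 (-0.45). A difference of at least 1 was found in 0 members in either direction (background 0.624% higher and 1.42% lower). ATF3 passed when arrays were centred on control genes (0.96, adjusted p = 0.0186), and no member passed under the other 8 alternatives run.

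Set directly against each other, etoposide lay below merbarone in 30 members and above it in 1, with 12 not called and a median of -0.82. Over all genes 19.1% were lower and 13.5% higher with etoposide. TRIB3 (-3.36 ± 0.18, limma adjusted p = 0.000322), DDIT3 (-3.26 ± 0.19), ATF3 (-2.75 ± 0.20), PPP1R15A (-2.66 ± 0.23) and SLC3A2 (-1.94 ± 0.13) showed the widest gaps. ALDH18A1 was the member with the higher value under etoposide (0.90 ± 0.16, adjusted p = 0.00796). CHAC1 was nearly equal under both agents, with a difference of -0.003 and a 95% interval of -0.63 to 0.63. NARS1 (0.02, interval -0.19 to 0.23), SLC7A11 (0.36, interval -0.01 to 0.72) and CTH (-0.21, interval -0.99 to 0.57) were not called either. The p53 targets CDKN1A and MDM2 rose with both agents: CDKN1A by 1.97 with merbarone and 1.77 with etoposide (adjusted p = 0.000848 and 0.0153), and MDM2 by 1.91 and 1.84 (adjusted p = 0.000187 and 0.00189).

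Steady-state cells, grown in full serum, were set against the androgen-deprived vehicle array. Here 25 of the 43 members were higher, 0 lower and 18 not called, against 15.7% of all genes higher and 12.4% lower. The median member differed by 0.57, and the median of all genes by 0.04. Differences of at least 1 were found in 12 members upward (background 6.45%) and 0 downward (background 6.74%). The roles were represented differently from merbarone: 9 of 10 synthesis enzymes, 5 of 9 regulators and effectors, 4 of 7 transcription factors, 3 of 6 transporters and 4 of 11 tRNA charging and export genes were higher. Whether that makeup differs from the merbarone one was not tested.

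EIF4EBP1 led with 2.40 ± 0.15, or 5.28-fold (limma adjusted p = 0.000115). JDP2 (1.57), CHAC1 (1.44), STC2 (1.35), CTH (1.33), PHGDH (1.21), PCK2 (1.16), TRIB3 (1.12), MTHFD2 (1.07), SLC1A5 (1.06), DDIT4 (1.03) and SHMT2 (1.01) were also past the test. CHAC1 read 9.08, 7.64, 7.78, 8.17 and 8.18 over the inhibitor series, and PHGDH 12.08, 10.87, 10.86, 10.61 and 11.43. In both genes steady state, not merbarone, was the highest array. DDIT3 (0.07 ± 0.19) and SESN2 (0.00 ± 0.24) were near 0, and ATF3 (-0.50 ± 0.20, adjusted p = 0.112), PPP1R15A (-0.65 ± 0.23, adjusted p = 0.0857) and SLC3A2 (-0.22 ± 0.13) were below it. For SESN2 this depended on the probe set, since its other one read 9.12 in steady state and 8.42 with vehicle.

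The median level of the control genes was 0.31 higher in steady state, the median of their own differences was 0.18, and 4 of 13 passed the test. Centred on them, 11 members stayed on the higher side of the test and 4 passed as lower, namely ATF3, PPP1R15A, VEGFA and VLDLR. The same centring moved the share of calls that were higher over all genes from 55.7% to 23.6%. In all, 9 members kept their call under each alternative run: CHAC1, DDIT4, EIF4EBP1, MTHFD2, PCK2, PHGDH, SHMT2, STC2 and TRIB3.

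Over the inhibitor series, merbarone was the highest of the 5 arrays in 23 of the 45 measured members and steady state in 17. How often these arrays were highest over all genes was not counted, so both counts only describe the members. Of the 27 members that rose with merbarone, 23 had a positive steady-state difference, and in 6 it was at least 1. Of the 15 members not called with merbarone, 13 had a positive steady-state difference, and in 6 it was at least 1. Over all genes, 6405 of 11865 had a positive steady-state difference. Across the 43 members the merbarone and steady-state differences, which share no array, had a Pearson correlation of -0.14, and over all genes 0.02. These correlations are across genes, which are not independent replicates, and they are given as a description.

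**Figure D3:**
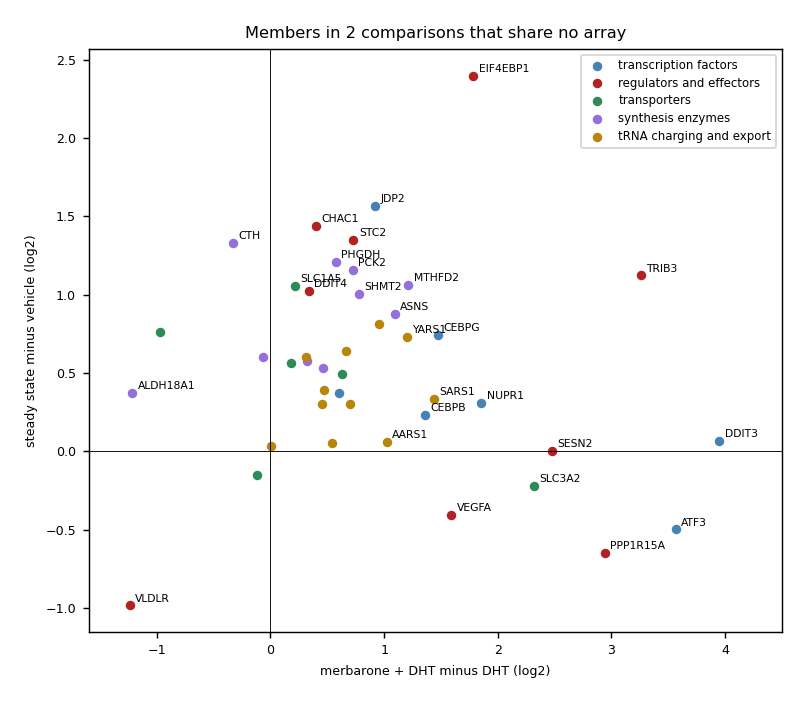
Each point is 1 of the 43 members tested, with the merbarone difference on the horizontal axis and the steady-state difference on the vertical axis, both log2. DDIT3, ATF3, PPP1R15A, SESN2 and SLC3A2 lie far right near or below 0, CHAC1, STC2, CTH and PHGDH lie high and to the left, and EIF4EBP1 and TRIB3 are high on both axes.

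The DHT response was the replicated comparison, with 3 pairs of DHT and vehicle arrays. Over the 3 pairs 0 of the 43 members passed in either direction, against 0.421% of all genes higher and 0.0253% lower, and 11 members had an unadjusted p under 0.05. VLDLR read 8.49 and 8.50 with vehicle and DHT in the inhibitor series. In the shRNA series it went from 6.85 to 8.58 with the control hairpin and from 6.58 to 8.76 with the TOP2B hairpin. The rise was thus 0.01, 1.73 and 2.18 by pair, and the mean of 1.31 ± 0.38 did not pass (limma adjusted p = 0.155). SLC7A5 went from 7.14 to 7.45, from 7.90 to 7.14 and from 7.83 to 6.27 in the same order of pairs. It was higher with DHT in the inhibitor series and lower in both shRNA pairs.

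Left to the 2 shRNA pairs, the fit called 4 members higher (background 9.81%) and 9 lower (background 12.3%). The higher ones were VLDLR (1.95, adjusted p = 1.81e-06), VEGFA (0.58), TARS1 (0.26) and SLC38A2 (0.22). The lower ones were SLC7A5 (-1.16, adjusted p = 0.00112), ATF3 (-0.67, adjusted p = 0.000278), PHGDH (-0.53), SESN2 (-0.52), ASNS (-0.44), EPRS1 (-0.42), PSAT1 (-0.37), GARS1 (-0.36) and PCK2 (-0.32). In the inhibitor series these genes differed by -0.16 to 0.31 with DHT, while KLK3 rose there as well. The 3' to 5' actin difference also fell with DHT in both shRNA pairs, from 3.09 to 2.67 and from 2.69 to 2.38, and its part in these values was not tested. A test of whether the DHT response differed in sh-TOP2B cells called 0 members and 0 of all genes, with 2 members and 205 of all genes at an unadjusted p under 0.05.

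Knockdown of TOP2B was compared over the 2 arrays of each hairpin. TOP2B itself read 10.54 and 10.87 with the control hairpin and 10.09 and 10.01 with its own, lower by 0.66 ± 0.12 on average, which did not pass (limma adjusted p = 0.0934). Of the 43 members 4 rose and 0 fell, and 39 did not pass, against 1.05% of all genes higher and 0% lower. With no fall among 11865 genes at this test, 832 genes had an unadjusted p under 0.05, in either direction.

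NUPR1 rose by 1.30 ± 0.06 (adjusted p = 0.000318), from 11.31 and 11.12 to 12.57 and 12.45. ATF3 rose by 1.02 ± 0.14 (adjusted p = 0.0255), with 9.44 and 8.77 against 10.46 and 9.80. CEBPB rose by 0.89 ± 0.08 (adjusted p = 0.00324), with 9.89 and 9.82 against 10.71 and 10.79. WARS1, whose enzyme is also known to be induced by interferon gamma, rose by 0.69 ± 0.10 (adjusted p = 0.0353), with 10.74 and 10.71 against 11.58 and 11.25. In each of these 4 genes both sh-TOP2B arrays lay above both sh-control arrays. The 3' to 5' actin difference was also lower in sh-TOP2B cells, at 2.69 against 3.09 with vehicle and 2.38 against 2.67 with DHT. Its part in the knockdown values was not tested. DDIT3 was at 0.39 ± 0.14 (adjusted p = 0.602), and TRIB3 (-0.00), ASNS (-0.06), SLC3A2 (0.10) and ATF4 (0.11) showed little difference. NUPR1 alone kept its call when the limma trend was dropped, and the adjusted p of ATF3, CEBPB and WARS1 became 0.155, 0.0517 and 0.189.

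Interferon-response genes moved in the same comparison. Of 12 such genes 11 were measured and 9 tested, and 8 of the 9 rose, against 1.05% of all genes. Their median was 3.15, with a range of -0.15 (MX1) to 4.63 (IFIT1). The list was written with earlier results of these data known, so the count is a description and not a test. The part of interferon-response genes in the rise of the 4 members was not tested.

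**Figure D4:**
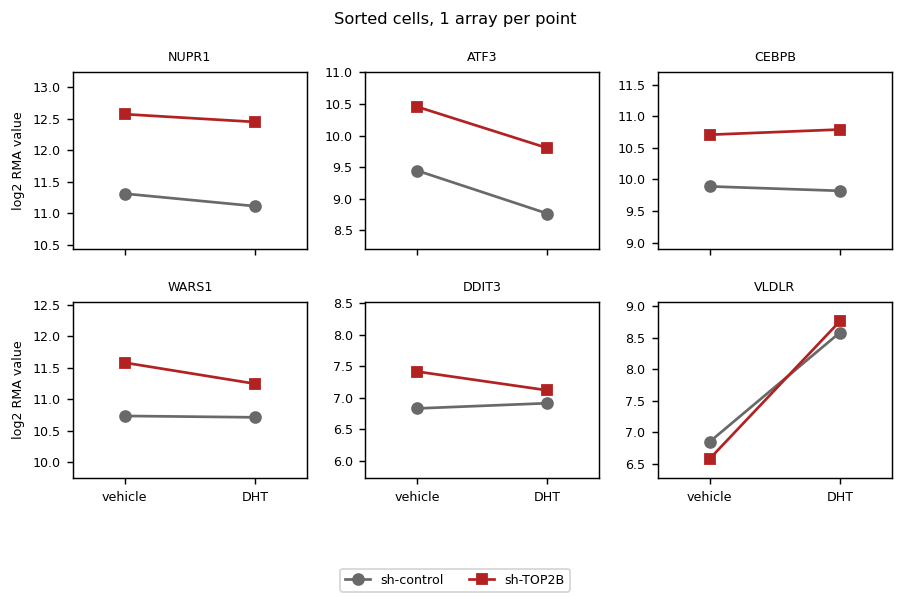
Log2 RMA values of 6 members in sorted cells, 1 array per point, with vehicle and DHT on the horizontal axis and sh-control and sh-TOP2B cells as separate lines. The sh-TOP2B line lies above the sh-control line for NUPR1, ATF3, CEBPB, WARS1 and DDIT3, and VLDLR rises with DHT on both lines.

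Sorted sh-control cells were also unlike the cells of the inhibitor series before any DHT. Between the vehicle arrays of the 2 series, 13 of the 43 members were lower by at least 1 in sorted cells (background 11%) and 1 was higher (background 22.4%). DDIT3 read 9.53 in unsorted and 6.83 in sorted cells, TRIB3 read 9.77 and 8.00, and SLC3A2 read 10.97 and 8.65. Transfection, sorting, RNA quality and the series itself cannot be told apart here. Levels were therefore not tested between the series, and the ranks given over all 9 arrays also hold this difference.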

How the data were processed

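Total RNA of LNCaP cells was measured on 9 arrays, 1 per group. The deposited values are log2 expression values per probe set, made with RMA per the submitters' processing notes, whose version was not stated in the sources. RMA equalises the distributions of arrays, so a shift shared by most genes is removed. Of 54675 probe sets, 41097 carried 1 gene symbol in the platform annotation, 1801 several and 11777 none, and 41043 matched RefSeq by gene ID with 0 symbols updated. Correlations over probe sets were 0.950 to 0.995 within a series and 0.880 to 0.916 between series, and at most 6.39% of values were equal on any 2 arrays of a series. RMA gives some probe sets the same value on different arrays, as with ASNS on the vehicle and DHT arrays.

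Each gene was read from its probe set with the highest mean, and genes at or above the 40th percentile of mean level were tested in R 4.3.3 with limma 3.58.1, two-sided, with a trend and Benjamini-Hochberg adjustment over 11865 genes at a threshold of 0.05. The fit held 3 backgrounds as blocks, a DHT term and a term for each lone array, and had 2 residual and 4.62 prior degrees of freedom. Lone arrays were compared with their reference array using its spread. The spread also holds real differences between the 3 DHT responses, so genes such as VLDLR and SLC7A5 have a large SE in every comparison. The knockdown was the contrast of the 2 shRNA backgrounds. The fit for a DHT response that differs in sh-TOP2B cells from the other backgrounds had 1 residual and 5.16 prior degrees of freedom. The labels do not say that arrays came from separate cultures, so p-values measure the spread between these arrays, and their number limits the precision. The fit was also run on simulated data in which lone arrays varied like the arrays of the pairs. That run therefore could not test this assumption.

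The members, their role groups, the other pathway lists and the interferon genes were chosen with earlier results of these data known. All 9 values were given for the 4 members of each role group that differed most with merbarone and could be tested, and for DDIT3, ATF3, ATF4, TRIB3 and ASNS. The alternatives were no filter, a filter at the 60th percentile, no trend, the median over probe sets, centring on 13 control genes, quantile normalization again, leaving out each pair, and a DHT level fitted from all pairs.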

Additional observations from a re-analysis of the deposited data

Results flagged for a closer look

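In 14 members the DHT array differed from vehicle in one direction in the inhibitor series and in the other in both shRNA pairs, and the difference between the series was not tested for them. The share of all genes with such a pattern was not counted, so the number is not a result particular to the members. In the inhibitor series the differences were 0.31 for SLC7A5, 0.19 for TRIB3, 0.18 for SLC7A11, 0.14 for CHAC1, 0.14 for JDP2, 0.083 for PCK2, 0.060 for AARS1, 0.037 for GARS1, 0.019 for CARS1 and 0.011 for EPRS1, and all of these were lower with DHT in both shRNA pairs. The opposite held for TARS1 (-0.16), XPOT (-0.037), SLC38A2 (-0.031) and ALDH18A1 (-0.021). With 1 pair in the inhibitor series, 10 of the 14 values are smaller than the median SE of a member for 1 array against 1 (0.15), and SLC7A5 had the widest contrast, at -0.75 and -1.56 in the shRNA pairs.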

How the results depend on the processing

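Of the 28 members called with merbarone, 18 kept their call under each alternative run, and 20 to 33 members were called higher across these settings. CARS1, IARS1 and PSPH lost theirs without the sh-control pair, JDP2 too, and IARS1, JDP2 and PSPH also without the sh-TOP2B pair. Without the trend, ATF4, CARS1, GARS1, IARS1, PCK2, PSPH and SLC7A1 lost their merbarone call. With the median over probe sets, ASNS, JDP2, SLC7A1 and XPOT lost it, while EPRS1, STC2 and TARS1 gained one. Centring on control genes gave 33 members higher and 2 lower with merbarone, 11 higher and 4 lower in steady state, 1 higher with etoposide, and 1 higher and 6 lower with DHT. It moved the share of higher calls over all genes from 48.5% to 74.3% for merbarone, 94.3% to 28.1% for DHT, 20.2% to 43.9% for etoposide (31.1% with quantile normalization again) and 41.4% to 28.2% for etoposide against merbarone. The median of all genes shifted with it, to 0.29 for merbarone and -0.27 for steady state. Without the trend, 15 members were higher and 1 lower in steady state, and 1 rose with the knockdown. Quantile normalization again gave 1 lower in steady state. Leaving out 1 pair at a time gave 0 to 4 members higher and 0 to 9 lower with DHT, the highest counts being without the inhibitor-series pair. NUPR1 turned to -0.0020 in steady state after centring, and with the median over probe sets the knockdown values of CARS1 and PSPH turned to 0.20 and -0.34. The causes were not tested.

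Over all genes, DHT calls (53) became 20 without the filter, 5 without the trend, 35 with the median over probe sets, 921 after centring and 2627, 1 and 9 without the inhibitor, sh-control and sh-TOP2B pairs. Etoposide calls (124) became 56, 192 with the stricter filter, 0 without the trend, 189 after centring, 205 with the fitted DHT level, and 0 and 29 without the sh-control and sh-TOP2B pairs. Knockdown calls (124) became 81 without the trend. With 1 array per group, no inhibitor or steady-state difference has a replicate of its own. The labels give no replicate numbers, so no block by number was fitted. The DHT effect was fitted on vehicle and DHT pairs within the 3 backgrounds.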
